A study of Homo sapiens with 6 samples.

Results

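Desmin, palmdelphin and genes of the contractile cytoskeleton were examined in the benign prostate epithelial line RWPE-1 of human origin, with and without added miR-183 family microRNAs. The 10 genes were DES, PALMD, TAGLN, TAGLN2, CALD1, TPM1, TPM2, TPM4, LMOD1 and SYNM, and 9 of them were found among the 14884 named genes of the arrays. SYNM, the gene of the intermediate filament protein synemin, was not analysed here. DES and PALMD were chosen by their measured differences, being higher in cells with the microRNA cluster on these same arrays, and those differences are described below with no support drawn from a test. The other 8 were added for their function.

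RWPE1-CTRL cells carried a GFP lentivirus with a scrambled insert, and RWPE1-183FC cells carried the same vector with the genomic region of miR-183, miR-96 and miR-182. Both were sorted as mixed GFP+ populations rather than single clones and were grown in the same medium, and each group had 3 biological replicates with 1 Affymetrix array each. Parental cells without virus were not analysed here, so that an effect of the vector common to both groups cannot be seen. All expression values are log2 values after RMA, the authors' normalization, in which a difference of 1 is a doubling.

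Muscle cells contract by sliding actin over myosin, and desmin is the intermediate filament that ties their contractile units to each other and to the cell membrane. Tropomyosins lie along the actin filament, caldesmon and the calponin family (which includes the transgelins) bind actin beside them, and leiomodin starts new filaments in smooth muscle. Epithelial cells use non-muscle forms of several of these proteins in stress fibres and at junctions, while desmin is a usual marker of muscle, including the smooth muscle of the prostate stroma. Palmdelphin is a cytosolic relative of paralemmin, a protein that attaches to the inner face of the plasma membrane.

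The mature microRNAs of the inserted cluster are shown because they define the RWPE1-183FC group. They are given from 5′ to 3′ as RefSeq lists them for GRCh38.p14, with the seed (bases 2 to 8) in capitals.
hsa-miR-183-5p, chr7:129774967-129774988, minus strand: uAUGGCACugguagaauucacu
hsa-miR-96-5p, chr7:129774739-129774761, minus strand: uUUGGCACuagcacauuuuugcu
hsa-miR-182-5p, chr7:129770447-129770470, minus strand: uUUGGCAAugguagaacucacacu
All 3 seeds hold the letters UGGCA. On the arrays the MIR96 feature was at 1.92 to 2.67 in RWPE1-CTRL and 5.19 to 5.93 in RWPE1-183FC. The MIR183 feature was at 2.27 to 3.03 and 4.05 to 4.55, again with no overlap. The MIR182 feature overlapped between the groups, at 2.67 to 3.24 and 3.11 to 3.43. It was dim, below the median of the array on every array of both groups. The overlap is thus no evidence that the mature microRNA was unchanged, and mature levels were not tested here. The paper measured the mature microRNAs by RT-qPCR and reported each of them as higher in cells with the cluster.

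PALMD, on chromosome 1, was at 3.62, 3.87 and 3.80 in RWPE1-CTRL replicates 1, 2 and 3, and at 4.999, 5.108 and 5.108 in RWPE1-183FC. All 3 arrays with the cluster lay above all 3 control arrays. The group means were 3.77 ± 0.13 (SD, n = 3) and 5.07 ± 0.06 (SD, n = 3), a difference of 1.31 on the log2 scale (limma standard error 0.14 with no filter) or 2.47-fold. In RWPE1-CTRL 2 of the 3 values lay below the median of their array, so that its fold is read against dim values. Between arrays of the same replicate number the difference was 1.37, 1.23 and 1.31.

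DES, on chromosome 2, was read from 2 transcript clusters, the probe groups that the array design assigns to a gene. The brighter cluster, which stands for the gene here, was at 4.85, 4.03 and 4.56 in RWPE1-CTRL and at 5.64, 5.50 and 5.50 in RWPE1-183FC. The RWPE1-183FC arrays were close together and above the controls, and the controls spread widely, with replicate 2 the lowest. The means were 4.48 ± 0.42 (SD, n = 3) and 5.55 ± 0.08 (SD, n = 3), a difference of 1.06 on the log2 scale (limma standard error 0.20 with no filter) or 2.09-fold. Between arrays of the same number the difference ran from 0.78 in replicate 1 to 1.47 in replicate 2.

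The other DES cluster separated the groups less. It was at 4.58, 3.999 and 4.32 in RWPE1-CTRL and at 4.41, 4.79 and 4.86 in RWPE1-183FC. Here the groups overlapped, since RWPE1-183FC replicate 1 lay below RWPE1-CTRL replicate 1, and the difference of the means was 0.39 on the log2 scale. The brighter cluster exceeded the other by 0.03 to 0.27 on the 3 control arrays and by 0.64 to 1.22 on the 3 RWPE1-183FC arrays, so that the 2 readings of DES changed unequally. With the mean of both clusters the DES difference was 0.73.

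The place of these clusters in the array's numbering differed as well. Cluster numbers on this design follow chromosome, strand and position, and among 10189 genes with 1 cluster the strand was that of most of the 20 nearest named clusters in 99.6%. The brighter DES cluster lay among minus-strand genes of chromosome 2 (20 of 20 neighbours), and the other lay among plus-strand genes (20 of 20). DES is known as a plus-strand gene, so that the cluster with the 1.06 difference sat on the side opposite to the gene by this numbering. The strand that each cluster's probes detect is not given in the sources used here and was not tested. Among 271 genes with 2 clusters placed on opposite strands and a strand in RefSeq's promoter table, the brighter cluster sat on the gene's own strand in 221 (81.5%).

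TPM1 and LMOD1 also had 2 clusters each on opposite strands by this numbering, and the brighter one of each sat on the gene's listed strand. The other TPM1 cluster was at 2.10 to 2.24 in RWPE1-CTRL and 1.91 to 2.29 in RWPE1-183FC, with overlap. The other LMOD1 cluster was at 3.65 to 4.01 and 3.56 to 4.09, also with overlap. PALMD, TAGLN, TAGLN2, CALD1, TPM2 and TPM4 had 1 cluster each.

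**Figure D1:**
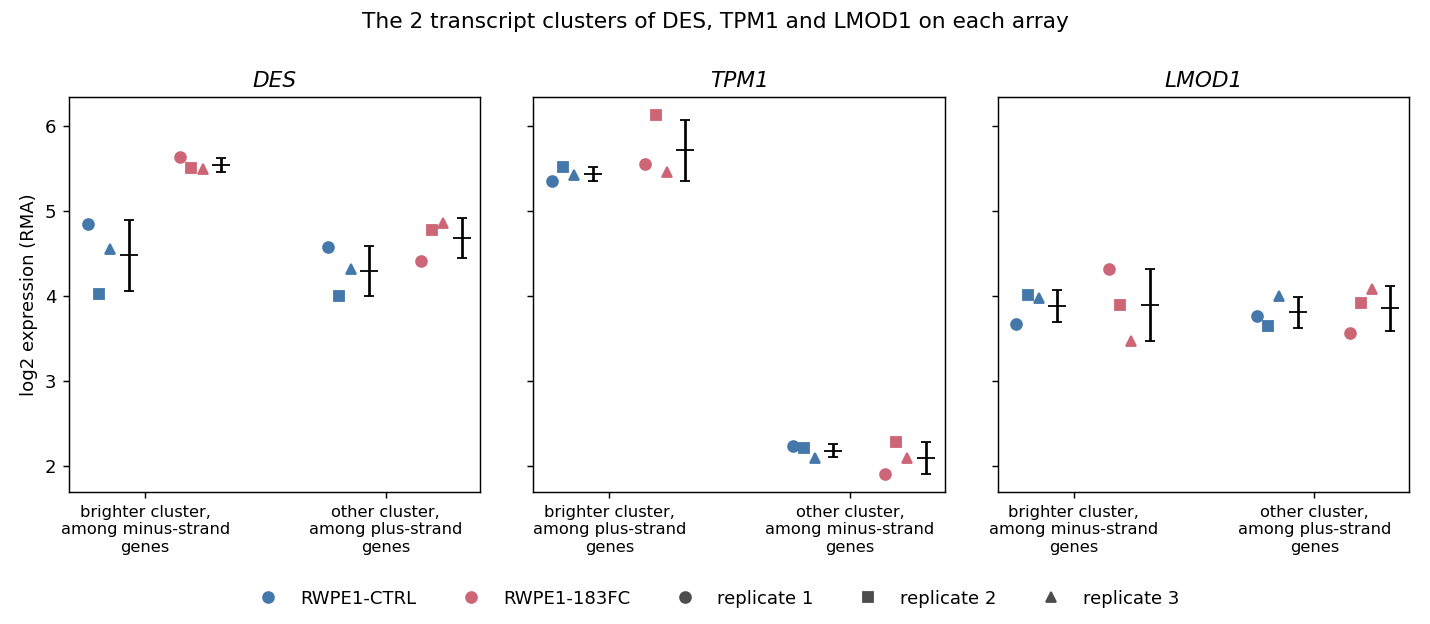
Log2 RMA expression (y axis) in the 2 transcript clusters of DES, TPM1 and LMOD1, with RWPE1-CTRL in blue and RWPE1-183FC in red, 1 symbol per replicate, and the mean with its SD in black. The groups are apart in the brighter DES cluster and overlap in the other 5.

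The selection of DES and PALMD came from the 48 genes higher in RWPE1-183FC by the rule of the paper's methods, among which PALMD was at rank 6 and DES at rank 12 by size of difference. These places describe how the pair was chosen and are not a finding. The rule used limma after genes with a median or variance under the 20th percentile had been removed, with a false discovery rate under 0.2 and a fold change over 1.5. It called 0.501% of 9583 genes higher and 0.438% lower (0.939% in all). That DES and PALMD are 2 of the 9 genes and are free of overlap upward, as 5.16% of all 14884 genes were, follows from how they were chosen. With the replicate number as a block it called 162 genes in place of 90, and with 1 array left out the lowest count was 43 (RWPE1-183FC replicate 1) and the highest 152 (RWPE1-183FC replicate 2), with 57 for RWPE1-183FC replicate 3 and 58 for RWPE1-CTRL replicate 1. Of the called genes, those with the smallest rise were TRIB2 and MPV17L, both at 0.74. Among genes past the filter, the largest rises not called were those of MIR4526 (0.71) and APCDD1L (0.70).

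None of the other 7 measured genes passed the test of this rule, 5 of which had passed the filter. At an unadjusted p under 0.05 limma gave 0 of the 7 with no filter, against 4.78% of all 14884 genes. With the filter it gave 0 of the 5, against 454 of 9583 genes. In none of the 7 were the groups free of overlap, against 9.73% of all genes. In so few genes, counts of 0 are near these shares and are no evidence that the genes were unchanged. Means were higher in RWPE1-183FC for 3 and lower for 4. The exact permutation test, two-sided, gave p = 0.2 at the lowest over these 7 genes, and 3 arrays against 3 allow no p under 0.1. Intervals below are 95% intervals of the log2 difference from limma with no filter. They and the permutation test take no account of replicate number, so that spread shared by same-numbered arrays stays in them. Since the sources do not say that the triplicates came from separate transductions, p-values measure only the spread between these samples.

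Of the actin-binding calponin family, TAGLN (transgelin, a marker of smooth muscle differentiation) was at 4.15, 3.86 and 4.06 in RWPE1-CTRL and 3.61, 3.80 and 3.92 in RWPE1-183FC. The groups overlapped in 1 pair of arrays only, and the difference was -0.25 (interval -0.59 to 0.10, limma adjusted p = 0.9992). TAGLN2, a relative with a broad tissue range, was at 7.93, 7.79 and 8.14 in RWPE1-CTRL and 7.85, 7.93 and 7.83 in RWPE1-183FC. It had been removed by the filter on variance, and its difference was -0.08 (interval -0.41 to 0.24).

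CALD1 encodes caldesmon, which binds actin and myosin in smooth muscle and in its shorter form in other cells. It was at 5.87, 5.69 and 5.66 in RWPE1-CTRL and 5.67, 5.62 and 5.84 in RWPE1-183FC. This was the narrowest range among these genes over all 6 arrays, and CALD1 had also been removed by the filter. Its difference was -0.03 (interval -0.35 to 0.29). The array does not tell the muscle form from the shorter one.

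The tropomyosins showed small differences in both directions. TPM1 was at 5.36, 5.52 and 5.43 in RWPE1-CTRL and 5.56, 6.13 and 5.46 in RWPE1-183FC. One array, RWPE1-183FC replicate 2, carried most of its difference of 0.28 (interval -0.14 to 0.70, limma adjusted p = 0.9992), which was 0.07 without that array. TPM2 was at 6.94, 6.65 and 7.15 in RWPE1-CTRL and 7.33, 6.97 and 7.10 in RWPE1-183FC, with overlap and a difference of 0.22 (interval -0.17 to 0.60). Leaving out RWPE1-CTRL replicate 2 brought the TPM2 difference to 0.086, and leaving out RWPE1-183FC replicate 1 brought it to 0.12.

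TPM4, a tropomyosin of non-muscle stress fibres, was at 9.57, 9.15 and 9.93 in RWPE1-CTRL and 9.69, 8.94 and 9.79 in RWPE1-183FC. Replicate 2 was the lowest array in both groups, by 0.60 in RWPE1-CTRL and 0.79 in RWPE1-183FC against the mean of the other two, which exceeds the group difference of -0.08 (interval -0.66 to 0.50). Between arrays of the same number the TPM4 difference was 0.12, -0.21 and -0.14. TPM2 was also lowest in replicate 2 of both groups, by 0.39 and 0.24. TPM1 was instead highest in replicate 2 of both, by 0.13 and 0.62.

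LMOD1, the leiomodin of smooth muscle, was at 3.67, 4.02 and 3.98 in RWPE1-CTRL and 4.32, 3.90 and 3.47 in RWPE1-183FC. Both its highest and its lowest array were in RWPE1-183FC. The difference was 0.01 (interval -0.48 to 0.49, limma adjusted p = 0.9992), and 1 array in each group lay below the median of its array.

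**Figure D2:**
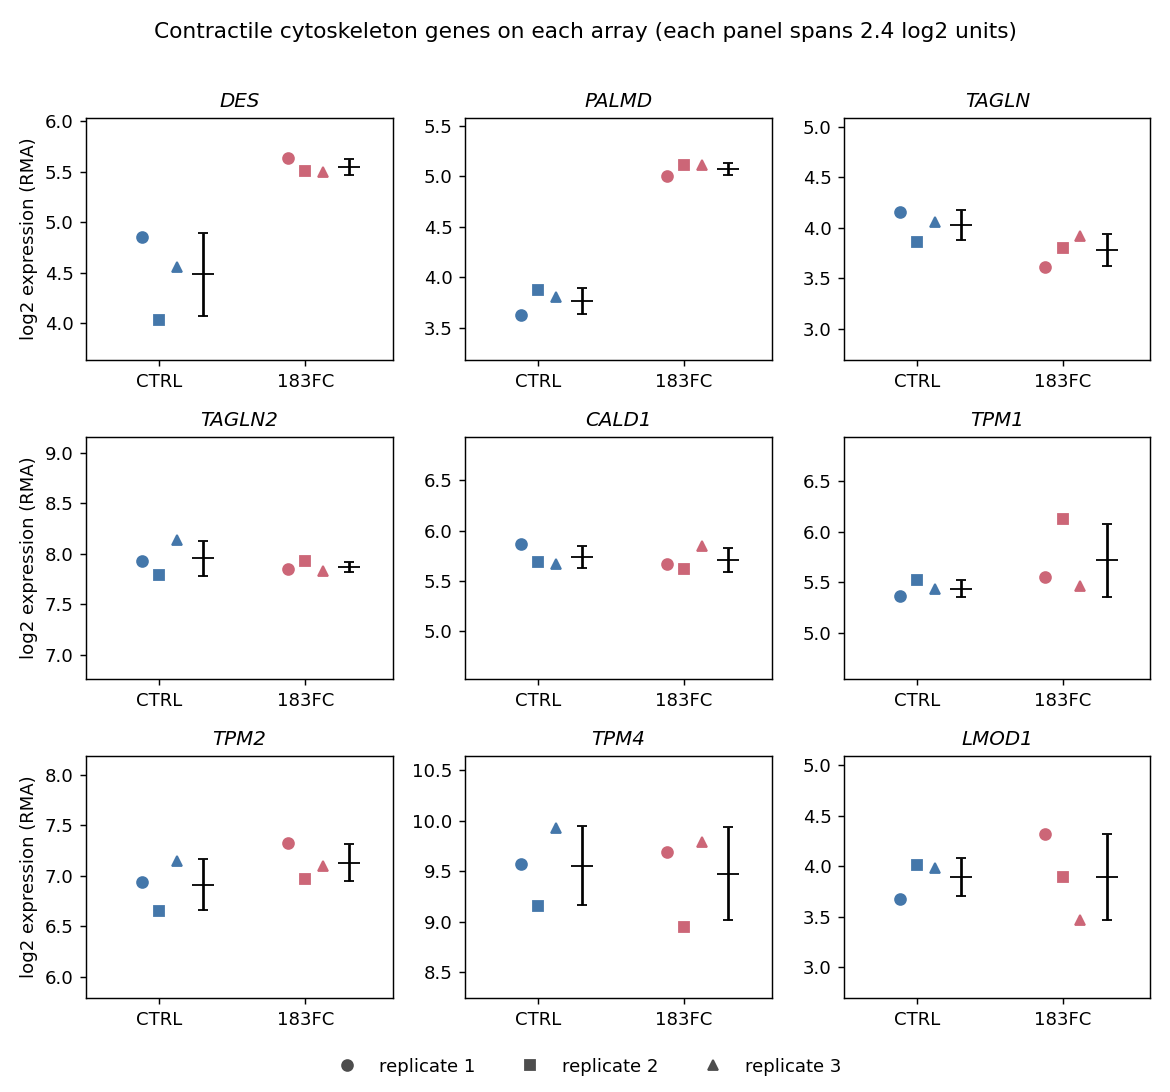
Log2 RMA expression (y axis, all panels of equal span) of the 9 measured genes on each array, with RWPE1-CTRL in blue, RWPE1-183FC in red, 1 symbol per replicate and the mean with its SD in black. The groups are apart for DES and PALMD and overlap for the 7 others, and TPM4 is lowest in replicate 2 of both groups.

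**Figure D3:**
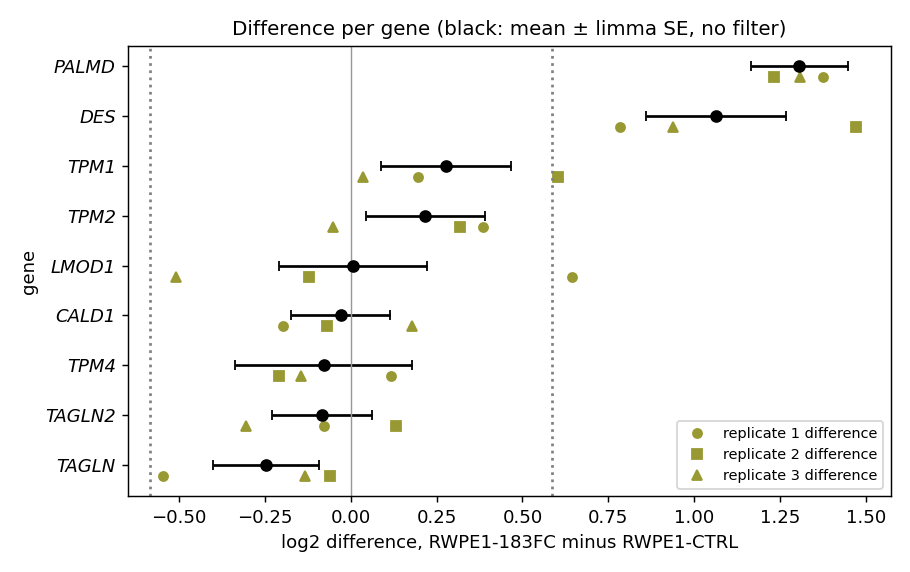
Log2 difference of RWPE1-183FC minus RWPE1-CTRL (x axis) for each gene, as the mean with its limma standard error in black and as the differences between arrays of the same number in olive. Dotted lines mark a fold of 1.5, which PALMD and DES exceed in all 3 same-number differences, TPM1 in replicate 2 and LMOD1 in replicate 1.

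Other genes of the same families and of muscle were taken from 10 lists written with earlier results of these data known. Of 149 distinct genes listed, 84 were measured and 56 passed the filter. None of these was called by limma in either direction, against 0.939% of the 9583 genes past the filter. A count of 0 in 56 is near that share. At an unadjusted p under 0.05 limma gave 1 of the 56 with the filter, against 454 of the 9583. Without the filter it gave 3 of the 84 (3.57%, against 4.78% of all genes). The groups were free of overlap in 9 of the 84, or 10.7%, near the 9.73% over all genes. The median log2 difference over the 84 was 0.03, against 0.01 over all genes. ACTA2, ACTG2, MYH11 and CNN1, the best known smooth muscle genes, were not analysed here.

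All 6 measured genes of the other tropomodulins and leiomodins, which cap or start actin filaments, had higher means in RWPE1-183FC (median 0.16). Means were higher for 7740 of all 14884 genes, and 0 of the 4 past the filter were called. Of the 6 genes 3 lay below the median of each array on all 6 arrays, and the rest were at differences of 0.02 to 0.08. TMOD4, the tropomodulin of skeletal muscle, was at 3.00 ± 0.19 (SD, n = 3) and 3.58 ± 0.13 (SD, n = 3), a difference of 0.58 without overlap. It was too dim to pass the filter, its values lay below the median of each array, and its adjusted p with no filter was 0.569 from limma. LMOD3, another dim gene removed by the filter, was at a difference of 0.25. Of the calponin, smoothelin and transgelin family 5 were measured, with a median of 0.04, and SMTNL1 (0.37) and SMTNL2 (-0.30), both smoothelin-like genes, had the largest differences. Of the 3 measured relatives of palmdelphin none was called, with PALM at -0.10, PALM2AKAP2 at -0.03 and PALM3 at 0.03.

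Among 7 other intermediate filament genes of types III to VI the median was -0.01. VIM, which encodes vimentin, the desmin relative of mesenchymal and cultured cells, had a mean of 9.05 in RWPE1-CTRL (SD 0.11, n = 3) and of 8.67 in RWPE1-183FC (SD 0.10, n = 3). All 3 RWPE1-183FC arrays were lower, opposite to DES, and the difference of -0.38 was not called (limma adjusted p = 0.9992). LMNB2, a lamin of the nuclear envelope, was at a difference of 0.11. Of 10 measured partners and chaperones of desmin 5 passed the filter and none was called, with a median of 0.08. The small heat shock gene HSPB8 was at 0.29 and NEBL, the gene of an actin-binding Z-disc protein, at 0.26. HSPB8 lay below the median of every array. NEBL was at 4.99 in RWPE1-183FC replicate 2 and at 3.91 to 4.28 on the other arrays.

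Of 6 measured smooth muscle contractile genes 3 passed the filter and none was called (median 0.06). PDLIM3, an actinin-binding LIM protein of muscle, was at 3.85 ± 0.26 (SD, n = 3) and 4.24 ± 0.22 (SD, n = 3), with overlap and a difference of 0.39. PDLIM7, of the same family, was at a difference of 0.22. Of 9 measured striated muscle genes 7 passed the filter, with a median of -0.05, and the troponin gene TNNC2 (-0.22) and MYOZ2 (-0.20), the gene of a Z-disc protein, were the largest. Of 16 measured non-muscle actomyosin genes 9 passed, with a median of 0.02, and the formin gene DIAPH3 (-0.32) and the cofilin gene CFL2 (0.23) were the largest. None in these lists was called.

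Transcription factors that switch on muscle genes were listed as well. SRF, with its MRTF and myocardin partners, drives many contractile genes, and MYOD1 and its relatives drive skeletal muscle genes. Of 14 measured 8 passed the filter and none was called (median 0.01). MYOD1 was at a difference of -0.33 without overlap, opposite in sign to DES, and MEF2D at 0.17. The MYOD1 values were dim, at means of 4.23 in RWPE1-CTRL and 3.90 in RWPE1-183FC, where 2 arrays lay below their median. Of 8 measured genes that are reported targets of SRF and MRTF, 6 passed the filter (median 0.11). CCN2, a matricellular protein, was at 5.29, 4.34 and 5.95 in RWPE1-CTRL and 6.07, 4.69 and 6.27 in RWPE1-183FC. It was lowest in replicate 2 of both groups and higher in RWPE1-183FC at each replicate number. Its difference of 0.48 was not called (limma adjusted p = 0.9992 with the filter, unadjusted p = 0.31 with no filter). With the filter it was the 1 gene of this list at an unadjusted p under 0.05. It was called when either RWPE1-CTRL replicate 3 or RWPE1-183FC replicate 2 was left out. NEXN, an actin-binding protein of muscle, was at a difference of 0.37 (limma adjusted p = 0.9992 with the filter, unadjusted p = 0.34 with no filter). It was called without RWPE1-183FC replicate 2. NEXN was also lowest in replicate 2 of both groups, at 2.86 in RWPE1-CTRL and 2.97 in RWPE1-183FC. With both replicate 2 arrays left out, an alternative chosen after seeing the data, neither gene was called.

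**Figure D4:**
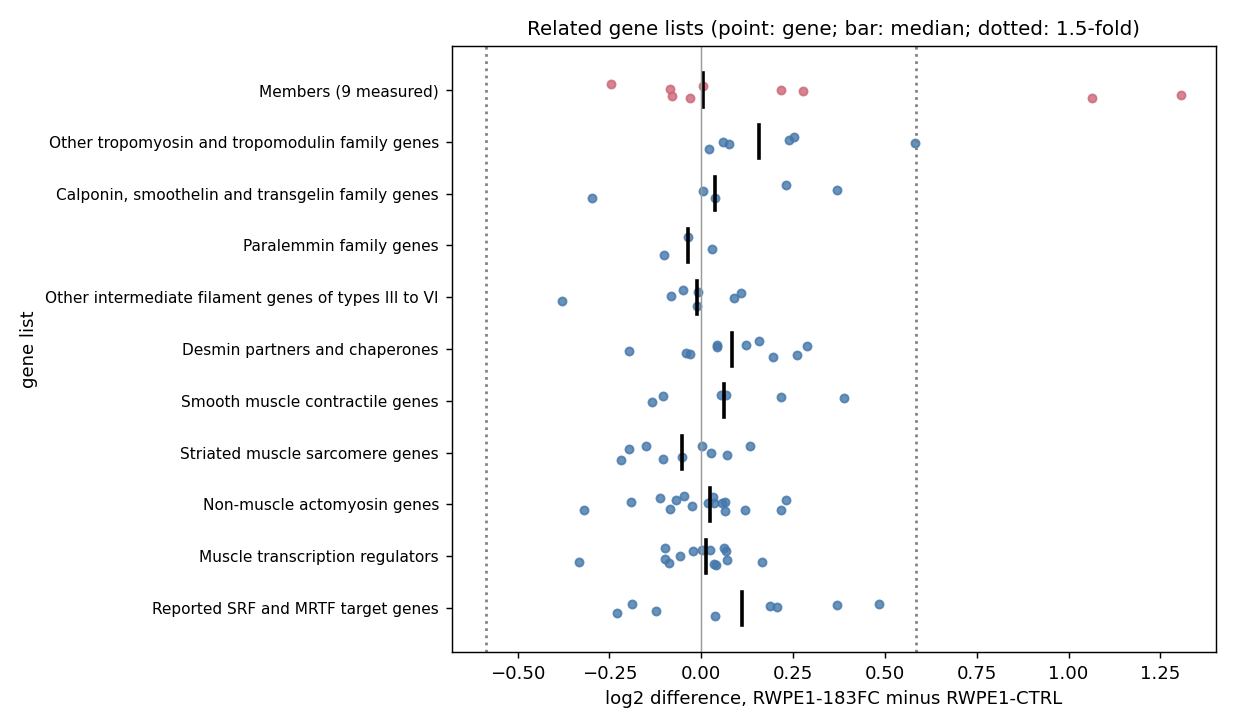
Log2 difference of RWPE1-183FC minus RWPE1-CTRL (x axis) for each measured gene (points) of 10 related lists and of the 9 measured genes of this set (red), with the median as a bar and dotted lines at a fold of 1.5. No gene of the 10 lists lies beyond the dotted lines, and only DES and PALMD do.

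The promoters of these genes were searched for motifs of muscle transcription. RefSeq promoters (GRCh38.p14, from 250 bases before to 50 after a start) were found for 8 of the 10 genes, 16 promoters in all, and DES and TAGLN had none. The CArG box, the site bound by SRF, was found in 1 of the 16, against 1.29% of 35116 promoters. The MCAT element, which is CATTCC on either strand, was found in 3 of the 16, against 14.03% of all. The E-box CANNTG, which has the same letters on both strands, was found in 8 of the 16, against 68.7% of all. The stretches with a CArG box or MCAT element are shown on the strand of the gene, with the motif in capitals, because they hold all matches to these 2 motifs in the 16 promoters, and none overlapped an E-box.
TPM4, CArG box 173 bases before a start, chr19:16067355-16067384, plus strand: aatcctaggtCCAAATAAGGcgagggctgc
LMOD1, MCAT element 126 bases before the start, chr1:201946657-201946686, minus strand: ccaagattccctGGAATGtcctcaagtttc
CALD1, MCAT element 194 bases before a start, chr7:134779428-134779457, plus strand: gagcatgcctagGGAATGacaggcatctcc
CALD1, MCAT element 42 bases before another start, chr7:134745413-134745442, plus strand: cagttaagtctgCATTCCgctactggattt
None of these 3 genes passed the test, with differences of -0.08, 0.01 and -0.03. The PALMD promoter held neither the CArG box nor the MCAT element, which says only that these letters were not in that window.

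The brighter DES cluster was compared over the 6 arrays with all genes past the filter. Those that followed it most closely were GSR (glutathione reductase), ZNF155, HAPLN2, ZNF649 and THBS2 (a thrombospondin of the matrix), with Pearson's r of 0.986 to 0.992. For PALMD they were PCDHB2, BMP7, MIR96, STAC and DEPTOR, with r of 0.978 to 0.993. All 10 had higher means in RWPE1-183FC, by 0.24 to 0.61 for the genes nearest to DES and by 0.61 to 3.20 for those nearest to PALMD. With 3 arrays in each group such values rest mainly on the difference between the groups, and no test was made of them. No contractile gene of the lists above was among the 10.

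Markers of the cells in culture were read beside these values. Of 8 basal markers 3 were measured, and their differences did not share a sign. KRT5 was at 9.30 to 9.86 over the 6 arrays, with a difference of -0.20 and all RWPE1-183FC arrays below the controls, and KRT14 was at 8.70 to 9.84, with a difference of -0.09 and overlap, and neither was called. KRT15 was higher in RWPE1-183FC by 0.96 (limma adjusted p = 0.00633 with the filter and 0.18 with no filter). Of 8 luminal markers 4 were measured, 2 with higher and 2 with lower means. KRT19 was lower, at -1.11 (limma adjusted p = 0.0009 with the filter and 0.137 with no filter), while KRT8 was at 0.28, KRT18 at 0.02 and KLK3 at -0.08, none of them called. The part of these markers in the DES and PALMD differences was not tested. Of 7 smooth muscle markers 3 were measured, and the mean of these was 3.68 to 3.86 in RWPE1-CTRL and 3.69 to 3.91 in RWPE1-183FC. MYOCD and SYNPO2 lay below the median of each array on all 6 arrays, and SMTN was at 5.39 ± 0.36 (SD, n = 3) and 5.39 ± 0.33 (SD, n = 3). Of 8 fibroblast markers 3 were measured, at means of 3.18 to 3.46 and 3.14 to 3.40, with DCN and LUM below the median on all arrays. The third, THY1, lay above the median on all arrays, at group means of 5.06 and 4.91. All RWPE1-183FC arrays of THY1 were below the controls, and the filter had removed it. Of 6 endothelial and leukocyte markers 3 were measured, at means of 5.31 to 5.65 and 5.28 to 5.40. The level came mostly from CD68, at group means of 9.43 and 9.24, while PECAM1 was at 2.99 and 2.87 and VWF at 3.87 and 3.89, and none of the 3 was called. The 4 measured of 6 skeletal muscle markers were at means of 4.44 to 4.88 and 4.57 to 4.63, and the cluster of TTN among these sat on the strand opposite to its gene. The clusters read for KRT18 and PECAM1 could not be placed by the cluster numbering. Another cluster of KRT18 could be placed and was not used. In bulk RNA, fewer cells of a type and less RNA per cell cannot be told apart.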

How the data were processed

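The authors hybridised total RNA to Affymetrix Human Gene arrays and deposited log2 values from RMA, a method that subtracts background, sets the arrays to 1 distribution and condenses each cluster's probes to a value. The oligo package is named in the methods, Partek and RMA in the submitters' processing notes, and their versions are not given in the sources used here. RMA draws low values together, so that folds of dim genes can be understated. Of 53617 clusters 16098 carried 1 gene symbol, none carried several and 37519 had none. The brightest cluster per symbol was kept, which gave 14884 genes, and 0 symbols changed on lookup of Entrez identifiers in RefSeq (GRCh38.p14). The arrays correlated at 0.974 to 0.988 with one another, had medians of 3.82 to 3.86, and their number limits the precision.

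The study's filter, which drops genes below the 20th percentile of the medians or of the variances, kept 9583 genes, and limma 3.58.1 (lmFit, eBayes; R 4.3.3) compared the groups. A call needed a fold over 1.5 in either direction and an FDR under 0.2 by Benjamini-Hochberg. Standard errors and intervals come from the same fit with no filter. The prior degrees of freedom of the fit were 175.8 with the filter and 5.803 without it. The genes described and all lists were chosen with earlier results of these data known. Besides them the text names, for each list, up to 6 called genes, or where there were none the 2 of greatest difference, the 5 genes nearest to DES and to PALMD by Pearson's r, and measured markers. Same-numbered arrays deviated together from their group means, with correlations of 0.101, 0.511 and 0.29 for replicates 1, 2 and 3, which by a rule of over 0.1 took the numbers to pair the arrays. RWPE1-CTRL replicate 3 and RWPE1-183FC replicate 1, of different numbers, correlated at 0.214, above the 0.101 of replicate 1, and the labels state no shared day or batch. Alternatives covered the filter, replicate block, array weights, normalization, threshold, several clusters per gene, prior variance and each array left out. Promoter and microRNA sequences are RefSeq's. Figures were drawn with matplotlib 3.10.9.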

Additional observations from a re-analysis of the deposited data

How the results depend on the processing

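The 90 calls over all genes became 36 with no filter and 37 with a filter on the median only, 162 with the replicate block and the same filter, 192 with array weights, 51 at an FDR under 0.05 and 43 to 152 with 1 array left out. With the replicate block, none of the 7 genes added by function and none in the related lists was called. The 7 were not called under any other alternative run either. Calls in the related lists, 0 in all, became 1 with array weights (CCN2) and 0 to 2 with 1 array left out. Without both replicate 2 arrays they stayed at 0. The log2 difference of DES, 1.06, was 0.73 with the mean of both clusters and 0.84 to 1.25 with 1 array left out. With its other cluster, an alternative chosen after seeing the data, it was 0.39 and DES was not called. The log2 difference of PALMD, 1.31, was 1.23 to 1.36 over the 12 alternatives that gave a value. Since both were chosen for this difference, its stability is no separate support. Signs turned for small differences: TPM4, -0.08, was 0.0002 with array weights and -0.28 to 0.19 with 1 array left out, TPM1, 0.28, was -0.087 with its other cluster, and with 1 array left out TAGLN2 ran from -0.164 to 0.0083, CALD1 from -0.096 to 0.033 and LMOD1 from -0.21 to 0.22. TPM2, 0.22, kept its sign, at 0.086 to 0.33. The PALMD, TMOD4 and LMOD1 differences rest in part on dim values, and the effect of this on their size was not tested.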
